A study of Mus musculus with 6 samples.

Results

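The regions described are the promoter peaks of the mouse Zfp genes, the zinc finger protein genes whose symbol is Zfp followed by digits only. A peak was taken when the authors' deposited peak table assigned it to such a gene and placed it in a promoter, within 1 kb of a start site. This gave 443 peaks of 286 genes, out of 70494 peaks in all and 21639 promoter peaks of 14926 genes. Accessible chromatin was mapped by ATAC-seq, which tags open DNA with a transposase, in definitive endoderm made from mouse epiblast stem cells. All 6 libraries came from one line, 7H OTX2-dTAG-EGFP, of BL6/129 hybrid background, in which OTX2 carries a tag that the small molecule dTAG13 directs to degradation. Every culture received 40 ng/ml Activin A and 3 uM CHIR for 16 h and then 100 ng/ml Activin A and 100 nM LDN for 24 h. From the primitive streak stage, 3 libraries had dTAG13 for 24 h (OTX2 depleted) and 3 had the DMSO vehicle (OTX2 present), and 50000 live sorted cells entered each. Within a group the 3 libraries are described as technical replicates, and the tests therefore measure the spread between libraries of 1 line and not between independent cultures.

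Most Zfp proteins bind DNA through arrays of C2H2 fingers, short folds held by a zinc ion. Many also carry a KRAB domain, which recruits the corepressor TRIM28 (KAP1) and through it the histone methyltransferase SETDB1 to silence transposable elements and imprinted loci. KRAB zinc finger genes multiplied by tandem duplication and lie in clusters of related copies. Others have conserved single roles, such as ZFP143, which binds promoters and chromatin loop anchors. OTX2 is a homeodomain factor that recognises the letters GGATTA.

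The promoter stretches printed here carry the features that the results return to, and each is given from the mm10 reference on the strand of its gene, without annotated exons. Capitals mark GGATTA or its complement in the Zfp365 stretch, from the 1 Zfp promoter peak called lower without OTX2. In the other 4, which gained accessibility, capitals mark the letters ACTACA, any 2 bases and TCCC, or their complement. The stretches lie at chr10:67901359-67901558 (minus strand), chr7:6172026-6172225 (plus), chr9:19621842-19622037 (plus), chr13:67683552-67683742 (minus) and chr7:6383018-6383205 (plus), in the order printed.
Zfp365: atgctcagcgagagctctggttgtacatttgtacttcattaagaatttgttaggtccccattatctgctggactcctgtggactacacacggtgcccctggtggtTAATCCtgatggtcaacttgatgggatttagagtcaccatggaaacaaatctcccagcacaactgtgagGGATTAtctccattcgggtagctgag
Zfp444: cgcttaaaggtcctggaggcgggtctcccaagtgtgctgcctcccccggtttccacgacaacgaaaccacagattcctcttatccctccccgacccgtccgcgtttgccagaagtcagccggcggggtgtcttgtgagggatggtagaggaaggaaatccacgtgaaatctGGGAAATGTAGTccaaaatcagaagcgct
Zfp317: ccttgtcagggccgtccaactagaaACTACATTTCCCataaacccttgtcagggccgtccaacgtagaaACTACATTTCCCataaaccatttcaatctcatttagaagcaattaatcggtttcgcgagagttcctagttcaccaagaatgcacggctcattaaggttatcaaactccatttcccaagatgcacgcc
Zfp738: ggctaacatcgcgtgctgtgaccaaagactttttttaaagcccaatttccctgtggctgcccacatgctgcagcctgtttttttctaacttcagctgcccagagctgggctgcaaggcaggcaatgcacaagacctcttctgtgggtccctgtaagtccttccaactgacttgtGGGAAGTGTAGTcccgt
Zfp28: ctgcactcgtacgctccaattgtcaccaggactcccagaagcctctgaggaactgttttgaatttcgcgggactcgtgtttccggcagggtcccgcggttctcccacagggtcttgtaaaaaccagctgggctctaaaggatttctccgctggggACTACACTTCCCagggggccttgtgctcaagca

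Across the series, all 9 definitive endoderm markers checked had a promoter peak, with mean normalized counts of 13.6 to 58.1 at the strongest promoter peak of each. Of 6 pluripotency markers 3 had one, at 15.9 to 21.2, and Zfp42, Nanog and Dppa3 had none. Both neural ectoderm markers had one, at 16.8 to 26.7, as did 4 of 5 mesoderm markers at 4.31 to 10.6 and 2 of 3 extraembryonic endoderm markers at 7.09 to 9.84. The deposited tables hold 1 mean and 1 fold change per peak and no value per library, so depth, the spread of single libraries and any library that stands apart could not be examined. A peak was called where the adjusted p in the authors' deposited table (Benjamini-Hochberg, under DESeq2-style column names) was under 0.05. By that rule 5.26% of all tested peaks were called, 1.47% higher in dTAG13 and 3.79% lower.

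Few Zfp promoters changed, and those that did nearly all gained accessibility when OTX2 was depleted. Of 442 Zfp promoter peaks with an adjusted p in the authors' deposited table, 10 were called higher in dTAG13 (2.26%), at Zfp444, Zfp583, Zfp317, Zfp551, Zfp738, Zfp868, Zfp131, Zfp951, Zfp28 and Zfp580. One was called lower (0.226%), at Zfp365, which makes 11 in all (2.49%). Among the 21110 other promoter peaks tested, 237 were higher (1.12%) and 215 lower (1.02%), or 2.14% together. By these deposited calls the total share was near that of other promoters, and the difference between the 2 sets lay in the split of directions, which was not tested. At an unadjusted p under 0.05, 53 of the 443 Zfp peaks were higher and 15 lower, against 7.43% and 5.06% of other promoter peaks. Other promoter peaks matched to the members in strength were higher in 1.16% and lower in 0.952%.

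**Figure D1:**
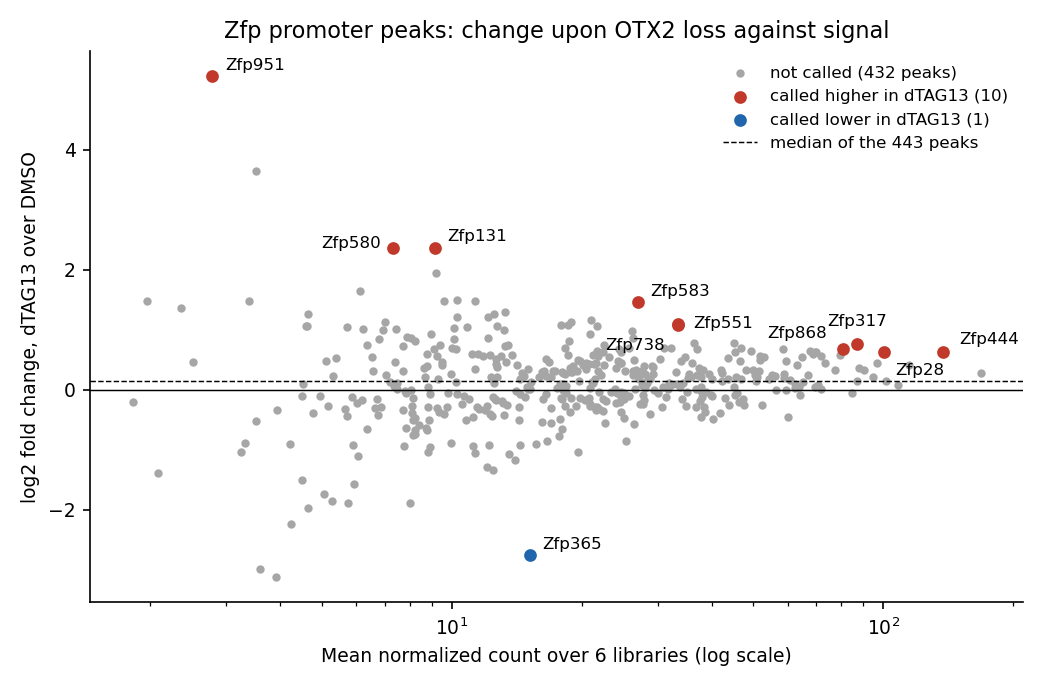
Each point is one of the 443 Zfp promoter peaks, placed by its mean normalized count over the 6 libraries (horizontal, log scale) and its log2 fold change, dTAG13 over DMSO (vertical). The 10 red points are called higher, 1 blue point (Zfp365) is called lower, and the dashed line is the median of 0.14.

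The family as a whole lay slightly above other promoters. The median log2 fold change of the Zfp promoter peaks was 0.14 (quartiles -0.23 and 0.47), against 0.03 (-0.37 and 0.38) for other promoter peaks and -0.18 for all peaks. A value above 0 was found at 265 Zfp peaks, or 59.8%, compared with 52.6% of other promoter peaks. The offset between the 2 sets was not tested. In the 95 Zfp peaks among the strongest 20% of promoter peaks the median was 0.21, with 4 called higher and none lower in the authors' deposited table. The 4233 other promoter peaks of that strength had a median of 0.12, with 109 higher and 6 lower.

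The counts of calls depend on where no change is placed. When the median of all peaks, which lies at -0.18, was set to 0, 35 Zfp peaks (7.92%) were higher and 1 was lower, and other promoter peaks were higher in 3.35% and lower in 0.748%. With the median of all promoter peaks at 0 the Zfp counts were again 10 and 1, while other promoters were higher in 0.952% and lower in 1.11%. With the median of each GC decile at 0, 29 Zfp peaks (6.56%) were higher and 1 was lower, and other promoter peaks were higher in 1.9% and lower in 0.677%. Under the shift of all peaks and under that of GC deciles the share of Zfp peaks called was therefore above that of other promoters. The median Zfp value was above that of other promoters under the 3 shifts run, and the single lower call was in each of them Zfp365.

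Zfp365, with the 1 called loss, is named in the family although no C2H2 finger was found in its translated coding sequence. Its called peak, chr10:67901310-67901608, had an implied mean normalized count of 26.4 in DMSO and 3.89 in dTAG13. The authors' deposited table gives it -2.76 on the log2 scale, with SE 0.60 and adjusted p = 0.000899 (DESeq2-style columns). The other promoter peaks of Zfp365, at chr10:67900660-67900785 (-0.76, SE 0.71) and chr10:67912584-67912812 (-0.34, SE 0.54), were not called. The peak was in the pooled DMSO peak list only. Zfp365 was the 1 member gene that the authors' deposited table marks as down, under the heading DEGdown (rank10). That mark belongs to genes and is not a measure of accessibility.

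Among the gains, Zfp951 (chr5:104860037-104860136) had an implied mean of 0.145 in DMSO and 5.43 in dTAG13. Since the DMSO value lies below 1 per library (3 counts over the group), the gain is given against 1, as 5.43-fold. This is not a lower bound, since the peak is weak (mean 2.79) and its log2 fold change has an SE of 1.55. The authors' deposited table gives adjusted p = 0.0237 (DESeq2-style columns). Zfp131 (chr13:119791464-119791544), a C2H2 factor without a match to any KRAB pattern run, went from 2.97 to 15.3, or 2.37 on the log2 scale with SE 0.70, and the authors' deposited table gives adjusted p = 0.0231 (DESeq2-style columns). Its other 2 promoter peaks, which were stronger, had values of 0.28 and 0.33 and were not called. Zfp580 (chr7:5051677-5051829) went from 2.38 to 12.3, or 2.36 on the log2 scale with SE 0.77, and the authors' deposited table gives adjusted p = 0.0462 (DESeq2-style columns). These 3 gained peaks were in the pooled dTAG13 list only.

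At 3 further promoters the gain was 1.08 to 1.45 on the log2 scale. The Zfp583 peak (chr7:6331257-6331568) had an implied mean of 14.5 in DMSO and 39.6 in dTAG13, a log2 fold change of 1.45 (SE 0.38). Zfp551 (chr7:12422330-12422565) went from 21.3 to 45.7, a log2 fold change of 1.10 (SE 0.31). Zfp738 (chr13:67683500-67683742), whose protein has 20 fingers by the pattern used, went from 21.4 to 45.4, a log2 fold change of 1.08 (SE 0.31). The adjusted p-values in the authors' deposited table were 0.00932, 0.0150 and 0.0175 (DESeq2-style columns). A second Zfp551 peak had nearly the same value, 1.07 (SE 0.53), and was not called.

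The 4 strong promoters among the gains rose less in fold but with small errors. Zfp444 (chr7:6171906-6172635) went from 108 to 167, or 0.62 on the log2 scale with SE 0.16, and the authors' deposited table gives adjusted p = 0.00644 (DESeq2-style columns). Zfp317 (chr9:19621842-19622380) went from 64.8 to 109 (log2 fold change 0.75, SE 0.21), Zfp868 (chr8:69625524-69625784) from 62.1 to 99.5 (0.68, SE 0.20) and Zfp28 (chr7:6383018-6383522) from 79.2 to 122 (0.62, SE 0.19). Their adjusted p-values in the authors' deposited table were 0.0124, 0.0190 and 0.0315 (DESeq2-style columns). Just past the threshold lay Zfp827 (adjusted p 0.0527), Zfp202 (0.0553) and Zfp111 (0.0592), all with values above 0, while Zfp580 was the last inside it (DESeq2-style columns of the authors' deposited table).

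**Figure D2:**
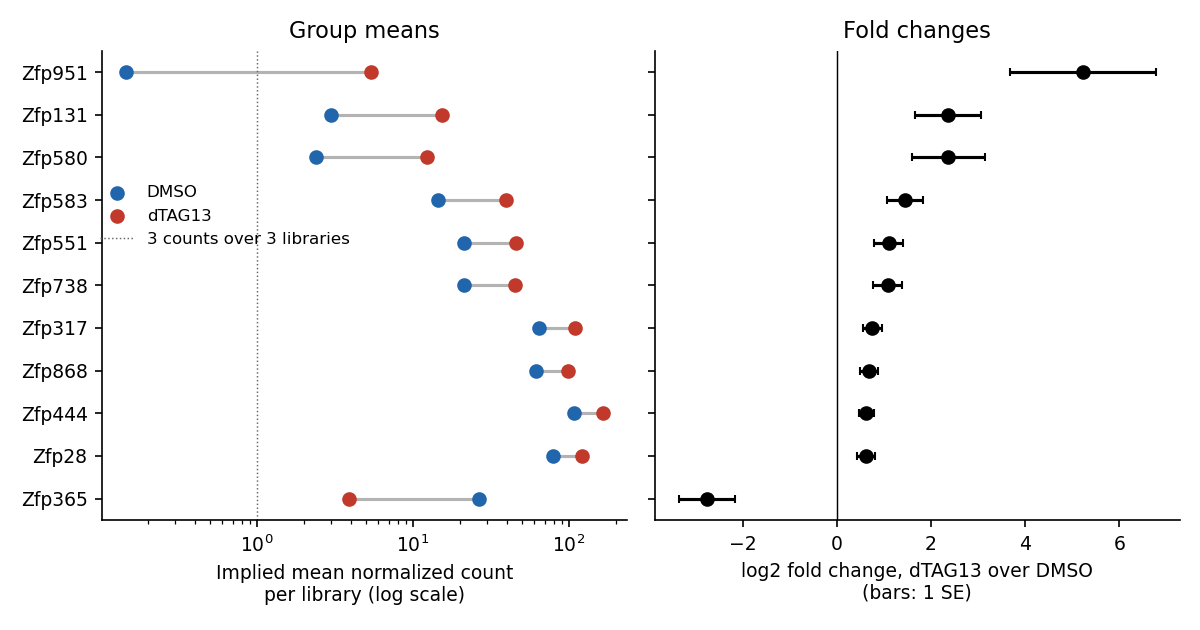
The left panel gives the implied mean normalized count per library in DMSO (blue) and dTAG13 (red) for the 11 called Zfp promoter peaks, on a log scale, and the right panel their log2 fold changes with bars of 1 SE. Zfp365 alone lies to the left of 0, and the DMSO value of Zfp951 lies below the dotted line of 1 count per library.

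Most of the strongest Zfp promoters were uncalled, but calls of gain were more frequent among strong peaks than among weak ones. Zfp78 was the strongest at a mean of 168 (152 in DMSO, 184 in dTAG13, log2 fold change 0.27, SE 0.14), followed by Zfp444, Zfp787 (mean 115, log2 fold change 0.41), Zfp574 (108, 0.07) and Zfp143 (101.3, 0.15). Of these 5, Zfp444 was called. Promoter peaks were also split into deciles of mean normalized count, with decile 10 the strongest. In deciles 9 to 10, 4.21% of the 95 Zfp peaks were called higher. The share was 1.88% of 160 in deciles 6 to 8 and 1.6% of 187 in deciles 1 to 5. For other promoter peaks the shares were 2.58%, 0.869% and 0.692% in the same order. Median SEs of the Zfp peaks were 0.25, 0.38 and 0.64 in that order, and a smaller SE lets a smaller change be called. The difference between deciles was not tested. Among peaks with a mean of at least 10, the lowest values after Zfp365 were those of Zfp629 (-1.34, SE 0.54) and Zfp574 (-1.28, SE 0.55, a weaker second peak), and the highest those of Zfp943 (1.49, SE 0.60), Zfp523 (1.48, SE 0.56) and Zfp583. Of these, Zfp365 and Zfp583 were called.

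Of 24 Zfp genes listed for known roles 21 had promoter peaks, 33 in all. None of the 33 was called, a count near the background, since 2.14% of other promoter peaks were called. The peaks had log2 fold changes from -1.57 to 1.37, a median of -0.15 and a lowest adjusted p of 0.139 (DESeq2-style columns of the authors' deposited table). Zfp57, which guards imprints, had 23.7 in DMSO and 38.3 in dTAG13 (0.69, SE 0.32). The repressors of retroelements and of placental genes Zfp809 and Zfp568 had values of 0.18 and 0.05 at their stronger peaks. Zfp281, a pluripotency-associated factor, went from 69.6 to 50.8 (-0.45, SE 0.23, not called). Zfp462 had 3 peaks at -0.89, -0.63 and 1.26, none called. Zfp423 and Zfp521, a related pair of many-fingered factors, are the 2 members that the authors' deposited table marks as up, yet their promoter peaks were uncalled, at -0.28 and 1.21 for Zfp423 and -0.25 for Zfp521. Genes with these marks, which belong to genes and not to peaks, were few in the family: 0.35% down and 0.699% up. Among other genes with a promoter peak the shares were 2.33% and 2.73%.

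One peak was present at 164 genes, 2 at 93, 3 at 23 and 4 at 6 (Zfp523, Zfp644, Zfp668, Zfp384, Zfp638 and Zfp219). Of the 122 genes with several, 57 had values on both sides of 0, 43 had all above and 22 all below, and the median range within a gene was 0.63 on the log2 scale. All 4 peaks of Zfp384 were below 0 (-0.92 to -0.05), whereas those of Zfp668 ran from -2.99 to 1.04. No gene had more than 1 called peak. Another gene's start lay within 1000 bases of 107 peaks (24.2%), and none of the 11 called peaks was among them. Of the 336 other Zfp peaks 2.98% were called higher and 0.298% lower. With 2.49% of the whole family called, few calls would fall among 107 peaks, and the difference was not tested.

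Whether KRAB promoters differed from the rest depended on how KRAB was recognised. The protein of 283 genes could be translated, and 3 patterns for the KRAB A box were run. The strict pattern found 46 genes with 61 peaks, a median log2 fold change of 0.01 and 2 called higher (Zfp28 and Zfp551), against 0.18 for the remaining 382 peaks. A looser pattern found 89 genes with 125 peaks, a median of 0.14 and 3 called higher (also Zfp738). An added pattern, accepting a match to only the start or only the end of the box, was added after the data had been seen because the strict one missed known KRAB proteins such as ZFP568. It found 144 genes with 203 peaks, a median of 0.22 and 6 called higher (Zfp28, Zfp317, Zfp551, Zfp583, Zfp738 and Zfp951), against 0.06 and 4 called higher for 229 peaks of 133 C2H2 genes without a match. The added pattern does not contain the others. Zfp661 and Zfp777 match the strict and looser patterns, and Zfp786 the looser one, yet all stand among the genes without a match to it. The strict and the added pattern place KRAB promoters on opposite sides of the rest, but the rest is not the same set. The 382 peaks outside the strict pattern include those of genes that match the added one, such as Zfp568. No direction is therefore read from the class. GC content was 57.0% at KRAB promoters by the added pattern and 67.5% at the other C2H2 promoters, and the part of GC in their values was not tested.

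**Figure D3:**
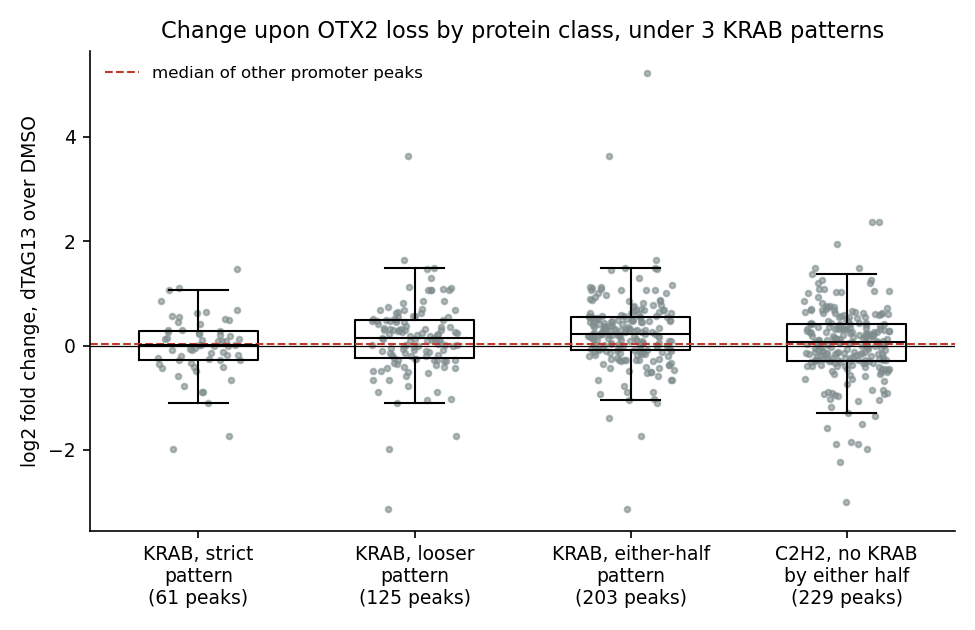
Points are Zfp promoter peaks, boxes give quartiles and medians of the log2 fold change (dTAG13 over DMSO), and whiskers reach the last point within 1.5 box lengths. The KRAB median is 0.01, 0.14 and 0.22 under the 3 patterns, against 0.06 for C2H2 genes without a match to the added one and 0.03 (dashed) for other promoter peaks.

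Members were concentrated on chromosome 7, with 123 peaks of 77 genes, or 27.8% of the family against 8.20% of other promoter peaks. It held 5 of the 10 gains, while its 1739 other promoter peaks had 16 higher and 19 lower. Of these 5 gains, 3 lay in one stretch, from Zfp787 to Zfp28 at chr7:6155084-6383522, where 10 peaks of 6 genes had a median of 0.48. Zfp444, Zfp583 and Zfp28 were called there, and Zfp667 (57.9 in DMSO, 85.3 in dTAG13, log2 fold change 0.56, SE 0.22) and Zfp78 were not. The stretch is described because of its 3 calls, which enter its median. Medians of the larger clusters ran from -0.27 (Zfp653 to Zfp810) to 0.50 (Zfp560 to Zfp846). The largest cluster, from Zfp712 to Zfp273 at chr13:67060843-67814262, held 17 genes, all KRAB by the added pattern and none by the strict one, and 28 peaks with a median of 0.40 and 1 call, Zfp738. Its strongest peaks were at Zfp712 (mean 79.6, log2 fold change 0.57), Zfp708 (35.0, -0.04), Zfp748 (34.0, 0.47) and Zfp738. Counting a gene as clustered when at least 2 other member genes start within 200 kb, 122 genes were clustered, with 187 peaks, 6 called higher and a median of 0.18. The 164 others had 256 peaks, 4 higher, 1 lower and a median of 0.11. Neighbours in a cluster are related copies that share sequence, so they are not independent of each other.

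**Figure D4:**
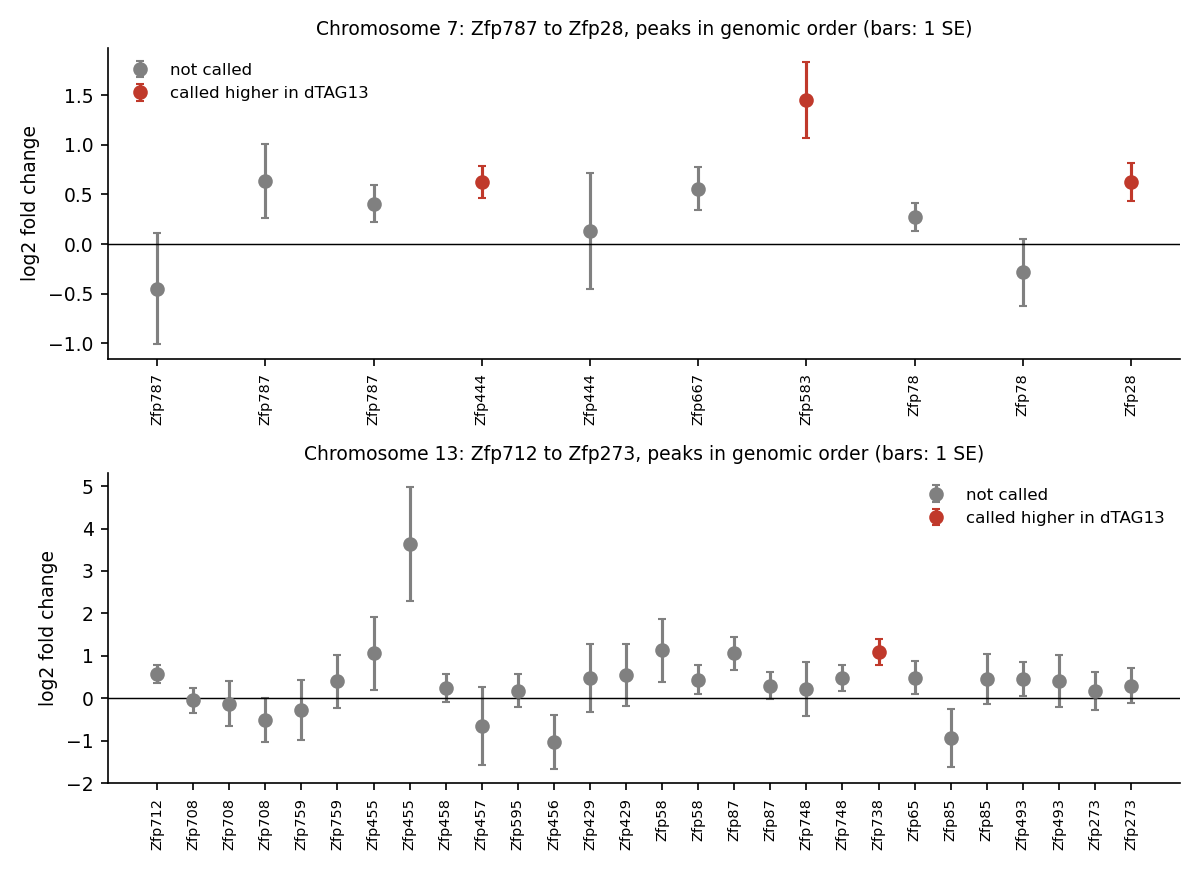
Log2 fold changes (dTAG13 over DMSO) of the Zfp promoter peaks in 2 clusters, in genomic order, with bars of 1 SE and called peaks in red. Of 10 peaks in the chromosome 7 stretch 3 are called, and of 28 in the chromosome 13 cluster 1 is. The stretch is shown because of its calls and the cluster as the largest, and some clusters not shown had medians below 0.

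Consensus sequences were searched on both strands, from 100 bases before to 100 bases after each peak's midpoint. GGATTA was in 15 Zfp windows (3.39%), against 4.0% of other promoter windows, and its reversal ATTAGG, a control, in 4.74% and 3.37%. The Zfp365 peak was the 1 called peak with GGATTA in its window. CCAAT (NFY) was in 33.0% of Zfp and 27.9% of other windows, CCGGAAG (ETS) in 16.7% and 11.1%, the palindrome of GCGCA and TGCGC (NRF1) in 3.61% and 1.24%, and GGGCGG (SP) in 45.8% and 55.5%. With 50 bases to either side, GGATTA was in 4 Zfp windows (0.903%) against 2.06% of other promoter windows, or 1.85% when matched in strength. The control ATTAGG was in 1.81% and 1.62%. The gap for GGATTA was wider than in the longer windows, but it rests on 4 windows and was not tested. In these shorter windows CCAAT was in 23.0% and 19.2%, CCGGAAG in 11.3% and 7.05%, the NRF1 palindrome in 2.03% and 0.84%, and GGGCGG in 34.1% and 40.6%. No test compares the consensus sequences with each other.

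Among the consensus sequences searched, the largest ratio belonged to the letters bound by ZFP143, itself a member. The form ACTACA joined to ATTCC was in 11 Zfp windows (2.48%, 95% Wilson interval 1.39 to 4.39) and 0.359% of other promoter windows, and in none of the 11 called. Reading the called promoters printed above led to 2 further forms, so 3 were run in all and the last 2 were shaped by these sequences. The wider, ACTACA then any 2 bases then TCCC, was tried first and was in 58 Zfp windows (13.1%) and 2.47% of other promoter windows. The narrower, ACTACA then any base then TTCCC, is contained in it and was in 46 (10.4%) and 1.16%. The wider form was in 21.9% of clustered and 6.64% of other Zfp windows. Within whole peaks it was in 4 of the 10 gained promoters, Zfp444, Zfp317, Zfp738 and Zfp28, which are those it was read from and so lend it no support. Among other promoters called higher, 5 of 237 windows (2.11%) held it, near the 2.47% of all other promoter windows. The median log2 fold change was 0.21 in Zfp windows with the wider form and 0.11 in those without. The windows with it include 3 of the gained promoters it was read from, so this contrast lends it no support either. By the added KRAB pattern the medians with and without it were 0.21 and 0.22 at KRAB peaks, and 0.19 and 0.04 at other C2H2 peaks. In clustered peaks they were 0.26 and 0.10, and in the rest 0.11 and 0.11. The letters describe the family's promoters, and a match is not a measured binding site.

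**Figure D5:**
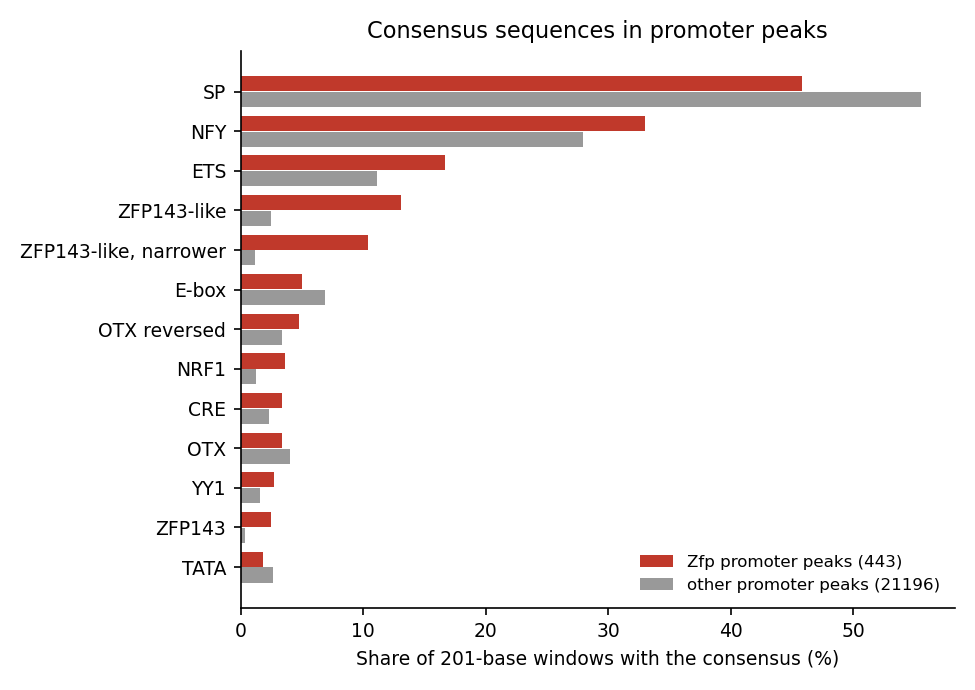
Bars give the share of windows, 100 bases to either side of the midpoint, that hold each consensus, for the 443 Zfp promoter peaks (red) and the 21196 other promoter peaks (grey). The 3 ZFP143 forms stand at 2.48%, 13.1% and 10.4% in Zfp windows, and the last 2 were chosen after the called promoters had been read.

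Most Zfp promoters were found open with and without OTX2. Of the 443 peaks, 344 (77.7%, 95% Wilson interval 73.5 to 81.3) overlapped both pooled peak lists by at least 1 base, 67 (15.1%) the DMSO list only and 32 (7.22%) the dTAG13 list only. Other promoter peaks were in both in 70.8%, in DMSO only in 21.1% and in dTAG13 only in 8.09%. The Zfp peaks were somewhat stronger, with a median mean normalized count of 18.6 against 15.7. Zfp peaks in both lists had a median of 22.7, against 7.79 in the DMSO list only and 7.64 in the dTAG13 list only. The part of strength in these shares was not tested. One pooled list per group gives these shares no replicate error, and the intervals cover counting only.

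Outside the promoter class within 1 kb, the member genes had 241 further peaks at 116 genes, some of them placed 1 to 3 kb from a start site. Losses outnumbered gains among them, as they did among peaks of other genes outside that class. In the authors' deposited table, of 235 tested, 3 were called higher, at Zfp169, Zfp703 and Zfp825, and 6 lower, at Zfp143, Zfp438, Zfp532, Zfp618, Zfp704 and Zfp879. That is 3.83% called, against 6.69% of the peaks of other genes outside that class, where 1.62% were higher and 5.07% lower. An intronic peak of Zfp618 went from 23.8 in DMSO to 1.55 in dTAG13 (log2 fold change -3.94, SE 0.83). For a peak assigned to Zfp143 the means were 15.9 and 2.25 (-2.82, SE 0.80). That peak lies at chr7:110097519-110097749, in an intron annotated to ENSMUSG00000101585.6, and neither Zfp143 promoter peak was called. A peak assigned to Zfp825 went from 7.66 to 28.3 (1.89, SE 0.44).

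For TRIM28 and the genes that act with it, the share called was near the background. Of 20 listed genes, 18 had 35 promoter peaks with 1 call (2.86%), against 2.14% of other promoter peaks. Trim28 itself had 40.0 in DMSO and 52.8 in dTAG13 at its strongest peak (log2 fold change 0.40, SE 0.29, not called). The call was a promoter peak of Smarcad1, a chromatin remodeller, at 5.81 and 22.9 (1.98, SE 0.52), and the authors' deposited table gives adjusted p = 0.00834 (DESeq2-style columns). An intronic Smarcad1 peak went the other way, from 18.5 to 2.36 (-2.97, SE 0.77). In 8 zinc finger families with other names, 166 promoter peaks had a median of 0.07, with 4 called higher (2.41%), at Prdm8, Klf13, Zscan25 and Sp4, and none lower in the authors' deposited table. The shares called higher were 2.26% of Zfp promoter peaks and 1.12% of other promoter peaks, and 1.02% of the latter were lower.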

How the data were processed

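ATAC-seq was measured in 6 libraries, 3 per group. The submitters' processing notes name fastp, Bowtie2, MACS2, featureCounts, HOMER 4.11 and ChIPseeker and the build mm10, without their order. Per the file headers, the authors deposited for each peak 1 mean normalized count (a signal averaged over all libraries), a log2 fold change of dTAG13 over DMSO with its SE, a test score and a p-value with its adjusted p-value. The software of that test is not given in the sources used here, and the column names are those of DESeq2. Since counts per library are not in these tables, no model was refitted. Group means were implied from the deposited mean and fold change. Calls under shifted medians were recomputed from the deposited log2 fold change and SE with a normal approximation and Benjamini-Hochberg adjustment over all peaks, by code tested on simulated data. Sequence and coding exons came from the GRCm38 genome and its GENCODE annotation, and proteins were matched to KRAB and C2H2 patterns. The members and all lists were chosen with earlier results of these data known. Genes were named when called, next to the threshold, strongest, most changed, with several peaks, in the largest cluster or listed for a known role. Of the forms tried, 2 of 3 ZFP143 consensus forms and 1 of 3 KRAB patterns were chosen after seeing the data. Python 3.11.15, pandas 2.3.3 and scipy 1.17.1 were used.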

Additional observations from a re-analysis of the deposited data

How the results depend on the processing

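The count of 11 called Zfp promoter peaks (10 higher, 1 lower) became 36 (35 higher) with the median of all peaks at 0, where the median log2 fold change was 0.33, and 30 (29 higher) with the median of each GC decile at 0 (median 0.21). It was 7 (6 higher) when a log2 change of 1 or more in size was also required and 27 (26 higher) at an adjusted p under 0.1. Without genes lacking a C2H2 finger the lower count was 0, since this leaves out Zfp365; the cause of the other changes was not tested. The other settings run, including 1 added after seeing the data (without peaks near another gene's start), gave 9 to 12 calls and medians (in 1 setting a weighted mean) of 0.11 to 0.19. The 11 peaks stayed under 0.05 in the 4 or 5 recalculations each entered. Overlap of 50% of both peaks put 71.1% in both pooled lists. KRAB genes numbered 46, or 89 with the looser and 144 with the either-half pattern, and the class medians change order with the pattern. No paired analysis was possible because the deposited tables hold no value per library, and for the same reason leaving out each library was not run. Depth is unknown.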
